A study of Mus musculus with 16 samples.

Results

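The DNA replication machinery was examined as a set of 45 genes, picked by symbol from the proteins that license origins, unwind the double helix and copy it, out of the 22114 genes listed in each of the deposited count tables. They were divided by role into 8 licensing genes (Orc1 to Orc6, Cdc6 and Cdt1), 12 helicase genes (Mcm2 to Mcm7, Mcm10, Cdc45 and Gins1 to Gins4), 11 polymerase and primase genes (Pola1, Pola2, Prim1, Prim2, Pold1 to Pold3, Pole and Pole2 to Pole4), 9 clamp, clamp loader and single-strand binding genes (Pcna, Rfc1 to Rfc5 and Rpa1 to Rpa3), and 5 genes of flap processing and ligation (Fen1, Lig1, Rnaseh2a, Rnaseh2b and Dna2). All 45 passed the filter on low counts in both tables. In bulk RNA from CD25+CD44- DN3 thymocytes, immature T cell precursors of C57BL/6 background, their expression was compared between label-retaining and label-diluting cells and between 4 genotypes. The first table held 3 GFP_HI and 3 GFP_LO libraries, sorted from mice with an Lmo2 transgene under the T lineage CD2 promoter and 1 copy of a doxycycline-inducible histone H2B-GFP knock-in, after 6 weeks of doxycycline and 2 weeks without it; cells that divide dilute the label and become GFP_LO. The second table held 3 wildtype, 2 p21KO, 2 Lmo2Tg and 2 Lmo2Tg_p21KO libraries, where p21KO is loss of the cell cycle inhibitor p21 (Cdkn1a) and Lmo2Tg is the same transgene. The GFP fractions came from mice of 2 months of age in independent cohorts, and the mice of the 4 genotypes were 6 weeks old. The paper states, where it treats the GFP fractions, that its RNA sequencing used pooled samples. Its account of the expression arrays also has cells of several mice pooled. For the genotype libraries nothing used here says that each was a separate pool, so their p-values measure the spread between these libraries, which may be partly technical.

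Replication is prepared in G1, when the origin recognition complex with Cdc6 and Cdt1 loads the MCM2 to MCM7 ring onto DNA. At the start of S phase Cdc45 and the GINS complex join that ring to make the active helicase, DNA polymerase alpha and primase lay down primers, and polymerases epsilon and delta extend the leading and the lagging strand on the PCNA clamp. E2F factors drive many of these genes as cells leave quiescence, and DN3 thymocytes divide vigorously once they have assembled a pre-TCR.

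Promoter sequence was read for the members from the RefSeq windows of GRCm38.p6, each with 250 bases before and 50 after a start. A window was given for 37 of the 45 genes (46 windows). Any of 4 E2F octamers (TTTCCCGC, TTTGGCGC, TTTCGCGC or TTTGCCGC, on either strand, where octamers may overlap each other) stood in 16 of these 37 genes, 43.2%, against 2.6% of all 27025 genes with a window and 4.84% of the 9035 tested in the genotype table. The CCAAT box, on either strand, was held by 22 of 37 genes, 59.5%, against 41.1% of all genes with a window. All 8 helicase genes with a window held a CCAAT box and 5 of them an E2F octamer, while among the clamp genes 6 of 8 held a CCAAT box and 1 an E2F octamer. These matches describe letters in the window and were not tested as binding sites. The 250 bases before the start are shown 5′ to 3′ on the gene's strand for a pair of ring genes with several octamers and for Pcna and Rpa2, which have none, with the octamers and CCAAT boxes (ATTGG on the other strand) in capitals.
Mcm5 (chr8:75109259-75109508, + strand): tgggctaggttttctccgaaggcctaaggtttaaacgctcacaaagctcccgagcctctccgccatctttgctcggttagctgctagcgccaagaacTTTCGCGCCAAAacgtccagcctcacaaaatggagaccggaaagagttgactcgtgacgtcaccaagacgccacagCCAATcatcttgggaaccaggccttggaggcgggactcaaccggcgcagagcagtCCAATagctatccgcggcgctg
Mcm6 (chr1:128359706-128359955, - strand): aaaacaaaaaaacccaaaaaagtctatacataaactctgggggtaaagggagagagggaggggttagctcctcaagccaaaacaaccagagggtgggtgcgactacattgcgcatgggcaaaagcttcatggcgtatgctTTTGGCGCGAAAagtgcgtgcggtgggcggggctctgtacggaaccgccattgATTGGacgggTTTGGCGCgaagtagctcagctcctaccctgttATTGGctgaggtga
Pcna (chr2:132253181-132253430, - strand): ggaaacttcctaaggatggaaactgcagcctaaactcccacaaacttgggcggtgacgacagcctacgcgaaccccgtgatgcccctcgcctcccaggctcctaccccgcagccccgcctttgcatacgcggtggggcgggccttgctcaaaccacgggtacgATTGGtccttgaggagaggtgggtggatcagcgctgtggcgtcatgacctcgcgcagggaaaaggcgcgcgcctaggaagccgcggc
Rpa2 (chr4:132768110-132768359, + strand): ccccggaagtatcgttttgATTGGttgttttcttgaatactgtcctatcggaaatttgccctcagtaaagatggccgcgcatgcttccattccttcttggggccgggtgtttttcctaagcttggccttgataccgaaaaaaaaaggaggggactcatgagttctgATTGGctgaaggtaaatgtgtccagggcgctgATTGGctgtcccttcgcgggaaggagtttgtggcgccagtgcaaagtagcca

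The genes that changed in a comparison below and hold an octamer just after the start are shown by that stretch, with the octamer in capitals and up to 10 bases on each side.
Cdt1 (chr8:122568037-122568064, + strand): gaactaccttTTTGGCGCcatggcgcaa
Pold1 (chr7:44548766-44548786, - strand): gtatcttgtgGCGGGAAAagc
Pold3 (chr7:100121468-100121495, - strand): agcgaagctgTTTCCCGCcggcgggagc
Pole2 (chr12:69228163-69228190, - strand): gtcggcggtgGCGCCAAAtcgcgaacat

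Libraries held 26861394 to 31106213 counts in the GFP table and 13864936 to 16837667 in the genotype table. The lowest count of a member in any library was 477 (Orc1) in the GFP table and 76 (Fen1) in the genotype table, where the next lowest was 233 (Orc1). Cdkn1a checked the labels: its level was 36.5, 37.5 and 49.0 CPM (counts scaled to library size) in wildtype, 14.3 and 17.7 in p21KO, 32.8 and 26.3 in Lmo2Tg, and 4.35 and 3.50 in Lmo2Tg_p21KO. It fell in p21KO against wildtype (log2 fold change -1.36 ± 0.17 SE, edgeR adjusted p = 0.00821) and in Lmo2Tg_p21KO against Lmo2Tg (-2.92 ± 0.21 SE, edgeR adjusted p = 9.08e-05). Lmo2 was at 41.4 to 107 CPM in the transgenic libraries of the genotype table and at most 0.306 CPM in the others.

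GFP_HI replicate 3 stood apart from its group. A chi-square of counts per degree of freedom was 110 and 128 between it and the other GFP_HI libraries, against 7.36 to 25.8 for other GFP pairs within a group and 2.55 to 17.4 for genotype pairs. It held Lmo2 at 285 CPM against 29.5 and 53.8, and Cdkn1a at 6.56 CPM against 29.9 and 35.8, below the GFP_LO range of 8.08 to 12.0. The main results of the GFP comparison are therefore given with and without it. All 8 DN3 markers were detected in every group, with summed levels of 7060 to 7450 CPM in GFP_HI and 5710 to 6150 in GFP_LO, and of 6190 to 6400 in wildtype, 6180 to 6640 in p21KO, 4470 to 5090 in Lmo2Tg and 4840 to 5000 in Lmo2Tg_p21KO. Among them the pre-TCR chain gene Ptcra was at 134 to 186 CPM in wildtype and 26 to 55.7 in Lmo2Tg. The 5 early progenitor markers summed to 287 to 468 CPM in GFP_HI and 541 to 607 in GFP_LO, and to 76.7 to 101 in wildtype and 248 to 370 in Lmo2Tg. Markers of later T cells (6 genes) summed to 78.8 to 94.9 CPM in wildtype, 205 to 235 in Lmo2Tg and 178 to 209 in Lmo2Tg_p21KO. The 6 B lineage markers summed to 25.8 to 47.2 CPM in GFP_HI and 22.7 to 25.7 in GFP_LO, with Ms4a1 at 1.87 to 7.58 against at most 0.0322 and Pax5 at 1.25 to 5.94 against at most 0.0966. They summed to 32.9 to 39.8 CPM in wildtype and 18.4 to 22.2 in Lmo2Tg, of which Cd79b was 31.7 to 39.3 and 16.6 to 19.9. The 6 myeloid markers summed to 10.5 to 12.3 CPM in GFP_HI and 15.2 to 16.4 in GFP_LO and to 18 to 35.7 in the genotypes, and the NK markers to at most 1.84, with Ncr1 at 0 in every library of 4 groups. In the stroma and epithelium list 1 gene carried the sum: Epcam was at 36.8 to 79.5 CPM in GFP_HI, 15.7 to 22.7 in GFP_LO, 48 to 57 in wildtype and 18 to 19.5 in Lmo2Tg, while Pdgfra was at 0 in every library and Col1a1 at most 2.56. What part these markers have in the differences below was not tested.

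Per kilobase of exon, levels of the members differed widely in wildtype cells. Pcna stood highest at 234 ± 23.3 CPM per kb (SD, n = 3), followed by Mcm6 at 196 ± 4.74. Mcm3 (128 ± 2.02), Mcm7 (127 ± 8.52), Mcm5 (125 ± 9.53) and Mcm4 (120 ± 3.59) came next; the spreads of Mcm7 and Mcm5 overlapped those of Mcm3 and Mcm4, which did not overlap each other. Mcm2 (74.8 ± 4.30) was lower and level with the DNA ligase Lig1 (74.7 ± 1.56). The origin recognition subunits ran from Orc6 at 29.2 ± 3.41, level with the primase gene Prim1 (28.9 ± 0.862), down to Orc1 at 7.29 ± 0.747 and Orc5 at 4.23 ± 0.357. The mean of each ring gene was above that of each origin recognition subunit. GFP_LO cells had Mcm6 at 189 ± 20.1 CPM per kb, Pcna at 139 ± 13.2 and Orc5 at 6.15 ± 0.223. These come from the separately counted GFP table and are not a comparison with wildtype cells. In Lmo2Tg of the genotype table, with the same transgene, Pcna was at 244 ± 26.9 (SD, n = 2). The flap endonuclease gene Fen1 was at 60.3 ± 6.23 CPM per kb in GFP_LO and 2.93 ± 0.465 in wildtype, but 78.8% of its exon bases overlap the antisense gene Gm10143 and the tables were counted separately, so its level and its changes are uncertain. The same doubt touches Gins2, with 67.3% of exon bases shared with Gse1, and Orc2, with 29.8% shared with Nif3l1; Pole2 shares 8.5% and Rnaseh2a 9.7% with a gene on the same strand.

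**Figure D1:**
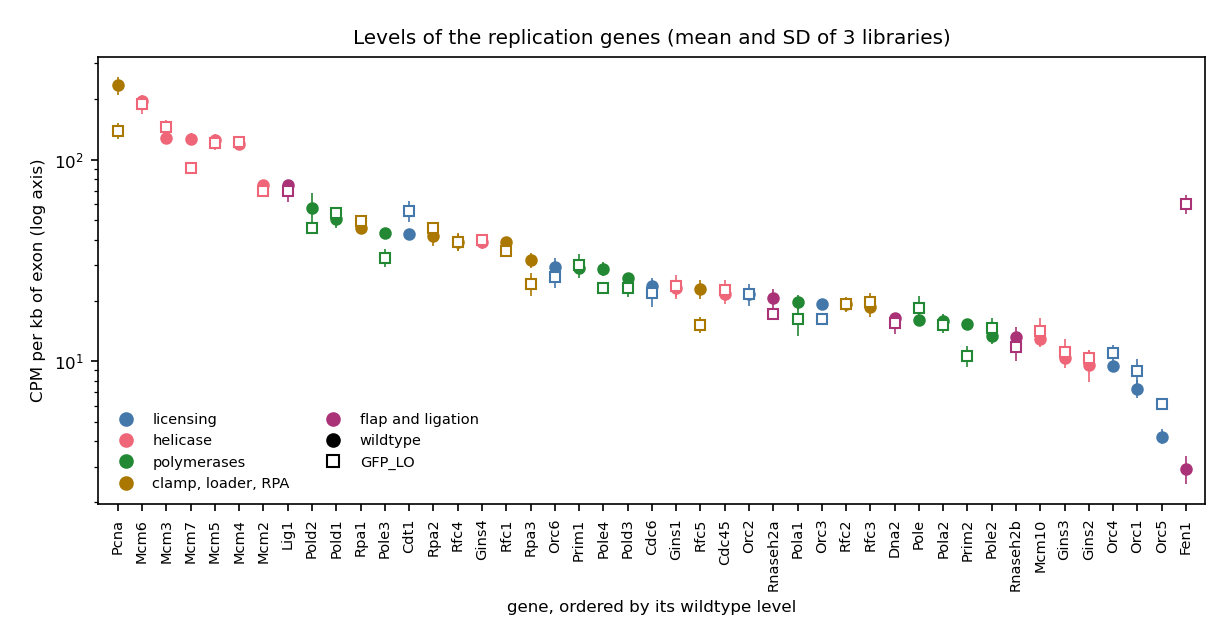
Level of each of the 45 members in CPM per kb of exon on a log axis (mean and SD of 3 libraries) in wildtype and in GFP_LO, ordered by the wildtype level. Pcna and the MCM ring genes lead at 74.8 to 234 CPM per kb in wildtype, Orc1 and Orc5 lie near the bottom, and Fen1 differs between the separately counted tables.

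The GFP fractions ask how replication genes differ between cells that had divided little during the chase and cells that had divided more. In label-retaining GFP_HI cells 43 of the 45 members had a lower mean level than in GFP_LO cells, against 5543 of all 11581 genes tested, and their median log2 fold change was -0.21 against 0.015 over all genes. Cdt1 and Pold1 were the members that passed the test, both lower (edgeR's quasi-likelihood test, Benjamini-Hochberg adjusted p under 0.05 over all genes). That is 2 of 45, against 9.49% of all genes called lower and 14.9% called in either direction, so the share of calls was not above the background. With each library left out in turn 0 to 4 members were called, and 273 to 4848 of all genes, against 1721 with every library. Without GFP_HI replicate 1, GFP_LO replicate 2 or GFP_LO replicate 3 the calls were 0 members and 676, 273 and 444 genes. In these 3 fits Cdt1 had log2 fold changes of -0.63, -0.59 and -0.59, and Pold1 of -0.34, -0.30 and -0.35. At an unadjusted p under 0.05 there were 11 members (24.4%, against 33.4% of all genes), and the libraries of the groups did not overlap for 8, all lower in GFP_HI, where 21.7% of all genes were. No member differed by more than 2-fold. Standard errors of the members ran from 0.056 to 0.210 with a median of 0.126. In bulk samples fewer cells in S phase and less of these RNAs per cell cannot be told apart.

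Much of the difference lay between single libraries. GFP_HI replicate 3 was the lowest of all 6 libraries for 38 members, and GFP_LO replicate 1 the lowest of the GFP_LO libraries for 42. The members' median deviation from their mean over the table was -0.330 (log2) in GFP_HI replicate 3, -0.0579 and 0.0582 in GFP_HI replicates 1 and 2, and -0.0275, 0.165 and 0.205 in GFP_LO replicates 1, 2 and 3. GFP_HI replicate 2 was above GFP_LO replicate 1 for 36 members. Without GFP_HI replicate 3 the median log2 fold change was -0.10, 34 members were lower, and 4 were called, all lower (Cdt1, Pold1, Pole and Pcna), against 21.7% of all genes called lower in that fit. The 16 mitotic genes listed beside the members moved with the same libraries, with a median deviation of -0.640 in GFP_HI replicate 3 and 0.464 in GFP_LO replicate 3.

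**Figure D2:**
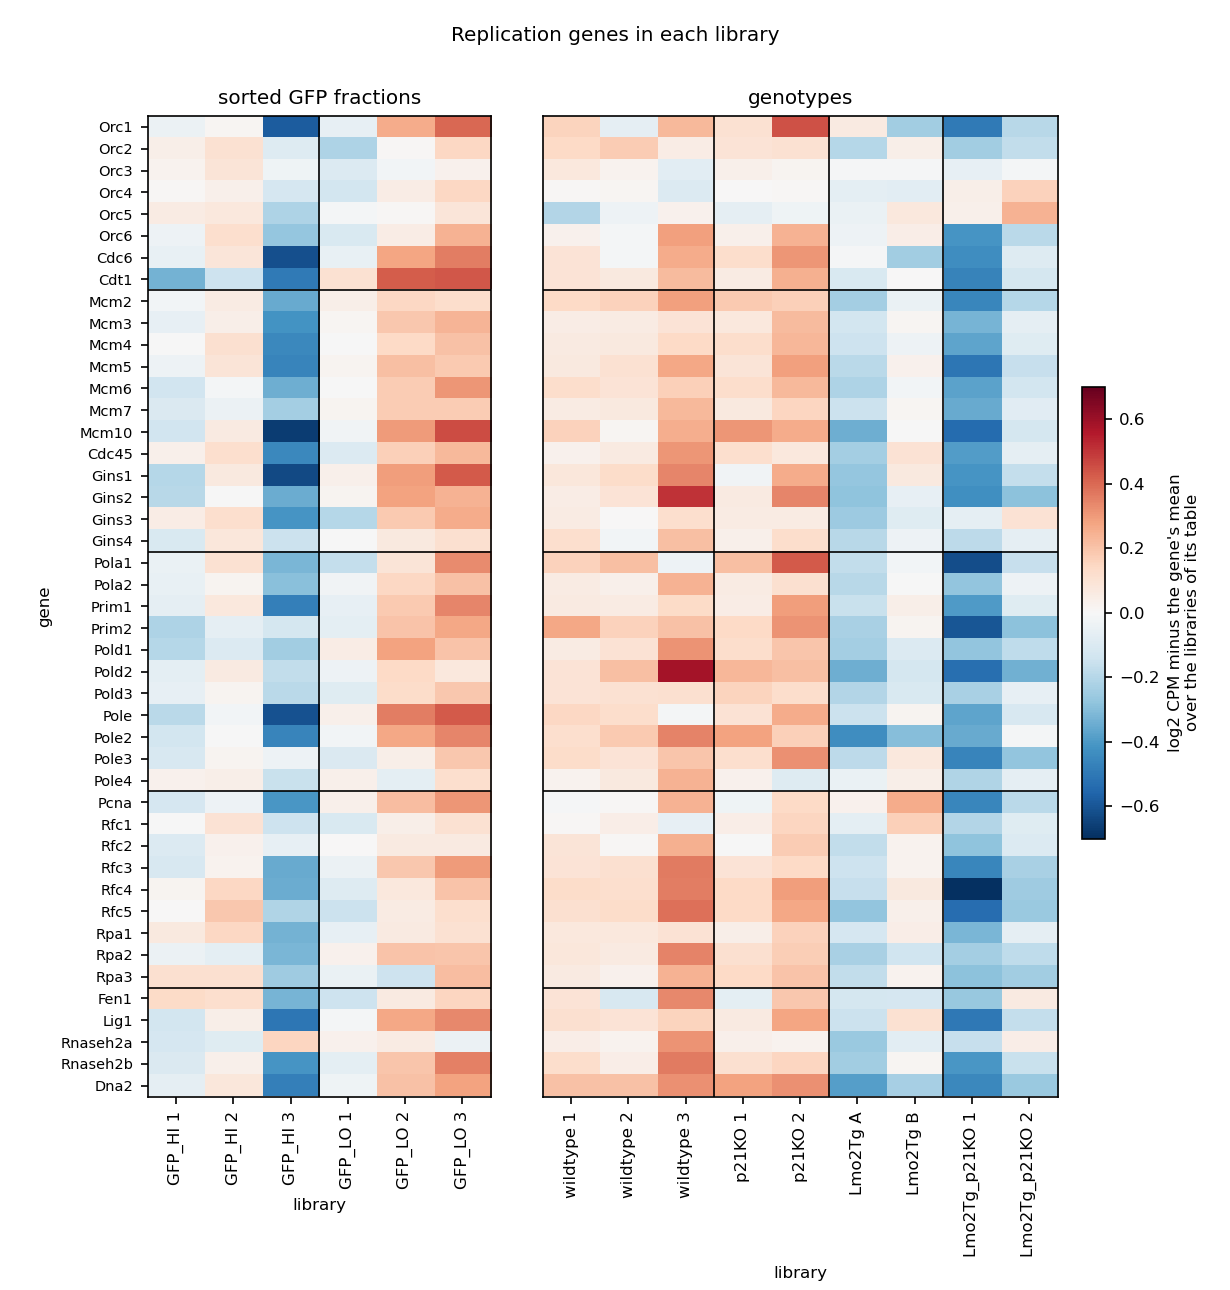
Each member's log2 CPM in each library minus its mean over the table, genes in rows by role and libraries in columns, one panel per table. GFP_HI replicate 3 and Lmo2Tg_p21KO replicate 1 are low over nearly all rows, and wildtype replicate 3 is the highest wildtype library for 38 members.

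Among the licensing genes Cdt1, the factor that brings the MCM ring to origins, had the largest decrease of all members. It measured 111, 126 and 98.8 CPM in GFP_HI and 150, 187 and 188 in GFP_LO. Every GFP_HI library was below every GFP_LO library. Cdt1 fell by 36.1% (log2 fold change -0.65 ± 0.13 SE, edgeR adjusted p = 0.0253), and without GFP_HI replicate 3 the change was -0.56 (edgeR adjusted p = 0.00851). With the replicate number fitted as a block Cdt1 did not pass (-0.64, edgeR adjusted p = 0.0701). Its partner in loading, the ATPase Cdc6, measured 95.1, 105 and 64.4 CPM in GFP_HI and 95.2, 120 and 126 in GFP_LO; the groups overlapped (-0.37 ± 0.20 SE, edgeR adjusted p = 0.252). Orc1, the cell cycle-regulated large subunit of the origin recognition complex, measured 25.9, 26.9 and 17.8 CPM against 25.6, 31.9 and 35.3 (-0.40 ± 0.20 SE, edgeR adjusted p = 0.218). The other origin recognition subunits differed little. Orc3 measured 102, 107 and 98.1 CPM in GFP_HI and 94.0, 98.8 and 102 in GFP_LO (0.06 ± 0.06 SE), the highest log2 fold change of a member, and Orc2 was the only other member with a higher mean in GFP_HI (0.04 ± 0.11 SE). Orc4 to Orc6 lay between -0.12 and -0.05. The median of the 8 licensing genes was -0.085, and -0.0085 without GFP_HI replicate 3, when 4 of them had a lower mean.

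All 12 helicase genes had a lower mean in GFP_HI, with a median log2 fold change of -0.25. An unadjusted p under 0.05 was found for 4 of them, against 33.4% of all genes. Mcm7 measured 341, 357 and 311 CPM in GFP_HI and 372, 415 and 415 in GFP_LO, with no overlap (-0.25 ± 0.08 SE, edgeR adjusted p = 0.083). Mcm6 measured 718, 778 and 622 CPM against 786, 890 and 973, also apart (-0.32 ± 0.12 SE, edgeR adjusted p = 0.113). Gins2, a subunit of the GINS complex, measured 32.5, 37.2 and 29.2 CPM against 37.8, 45.3 and 44.1 (-0.36 ± 0.12 SE, edgeR adjusted p = 0.0921). These were the helicase genes whose groups did not overlap. For the other ring genes GFP_HI replicate 2 exceeded GFP_LO replicate 1. Mcm2 measured 447, 471 and 354 CPM against 466, 501 and 494, and Mcm3 471, 505 and 367 against 495, 558 and 580. Mcm4 measured 405, 440 and 297 CPM against 405, 447 and 468, and Mcm5 427, 465 and 318 against 443, 506 and 496. Their log2 fold changes were -0.20, -0.28, -0.21 and -0.26 in that order, with edgeR adjusted p of 0.197 to 0.379. The remaining helicase genes lay between -0.11 (Gins4) and -0.49 (Gins1). Without GFP_HI replicate 3 the median of the helicase genes was -0.13, with all 12 means still lower.

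All 11 polymerase and primase genes had a lower mean in GFP_HI (median -0.21). Pold1, the catalytic subunit of polymerase delta, measured 203, 218 and 196 CPM in GFP_HI and 241, 283 and 267 in GFP_LO. The groups stood clear of each other and Pold1 fell by 22.0% (-0.36 ± 0.08 SE, edgeR adjusted p = 0.0347), or by -0.32 without GFP_HI replicate 3 (edgeR adjusted p = 0.0164). With the replicate block Pold1 did not pass (-0.36, edgeR adjusted p = 0.0763). Pole, the catalytic subunit of polymerase epsilon, measured 148, 167 and 111 CPM against 173, 216 and 227 (-0.54 ± 0.18 SE, edgeR adjusted p = 0.0916). Its groups did not overlap, and it passed the test without GFP_HI replicate 3 (-0.38, edgeR adjusted p = 0.0421). The primase subunit Prim2 measured 49.4, 55.0 and 52.7 CPM against 54.8, 65.9 and 69.1 (-0.27 ± 0.10 SE, edgeR adjusted p = 0.124), with an overlap of 1 library. The 2 small histone-fold subunits of polymerase epsilon, Pole3 and Pole4, had the values nearest to 0 of this group, at -0.09 and -0.06. Without GFP_HI replicate 3 the median of the 11 genes was -0.12.

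In the clamp group all 9 genes had a lower mean but the median was -0.08. Pcna, the sliding clamp, measured 269, 286 and 221 CPM in GFP_HI and 300, 340 and 363 in GFP_LO. The groups did not overlap, and the difference missed the threshold with all libraries (-0.37 ± 0.12 SE, edgeR adjusted p = 0.0895) and passed it without GFP_HI replicate 3 (-0.26, edgeR adjusted p = 0.0453). Rpa2, a subunit of the single-strand binding protein RPA, measured 121, 119 and 99.9 CPM against 127, 143 and 142 (-0.28 ± 0.09 SE, edgeR adjusted p = 0.0986). The clamp loader subunit Rfc3 measured 58.7, 64.5 and 49.7 CPM against 61.8, 72.4 and 78.2 (-0.30 ± 0.13 SE, edgeR adjusted p = 0.167). The other clamp loader and RPA genes lay between -0.11 and -0.01, so that the median of the group was closer to 0 than that of its clamp. Without GFP_HI replicate 3 the median of these 9 genes was 0.022 and 5 of them had a higher mean in GFP_HI.

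For flap processing and ligation the median was -0.30 over 5 genes. Lig1, the ligase that joins Okazaki fragments, measured 238, 267 and 183 CPM in GFP_HI and 257, 314 and 329 in GFP_LO (-0.39 ± 0.16 SE, edgeR adjusted p = 0.155). Dna2, a nuclease and helicase that trims long flaps, measured 77.5, 85.7 and 58.0 CPM against 79.4, 93.5 and 98.6 (-0.30 ± 0.16 SE, edgeR adjusted p = 0.249). Rnaseh2b, a subunit of the RNase H2 that removes ribonucleotides from DNA, measured 61.0, 67.1 and 49.0 CPM against 62.2, 74.9 and 83.6 (-0.32 ± 0.15 SE, edgeR adjusted p = 0.206). All 3 had overlapping groups. Its catalytic partner Rnaseh2a ran the other way in the library that stood apart: GFP_HI replicate 3 had the highest value of all 6, 66.3 CPM, against 54.9 and 56.2 in GFP_HI replicates 1 and 2. Without that library the median of the 5 genes was -0.14.

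Genes of chromosomes 2 and 15 had medians of -0.178 (923 genes) and -0.431 (464 genes) in this comparison, against 0.0458 for the other 10194 genes tested. Of the members Mcm10, Orc4, Pcna and Gins1 lie on chromosome 2 (median -0.42) and none on chromosome 15. The 41 members elsewhere had a median of -0.20 and 39 of them a lower mean in GFP_HI, so Cdt1 (chromosome 8) and Pold1 (chromosome 7) were not among the genes of those chromosomes. Members with an E2F octamer in their window had a median log2 fold change of -0.29 (16 genes) and those without one -0.11 (21 genes), given as a description. The corresponding medians in Lmo2Tg against wildtype were -0.22 and -0.20.

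**Figure D3:**
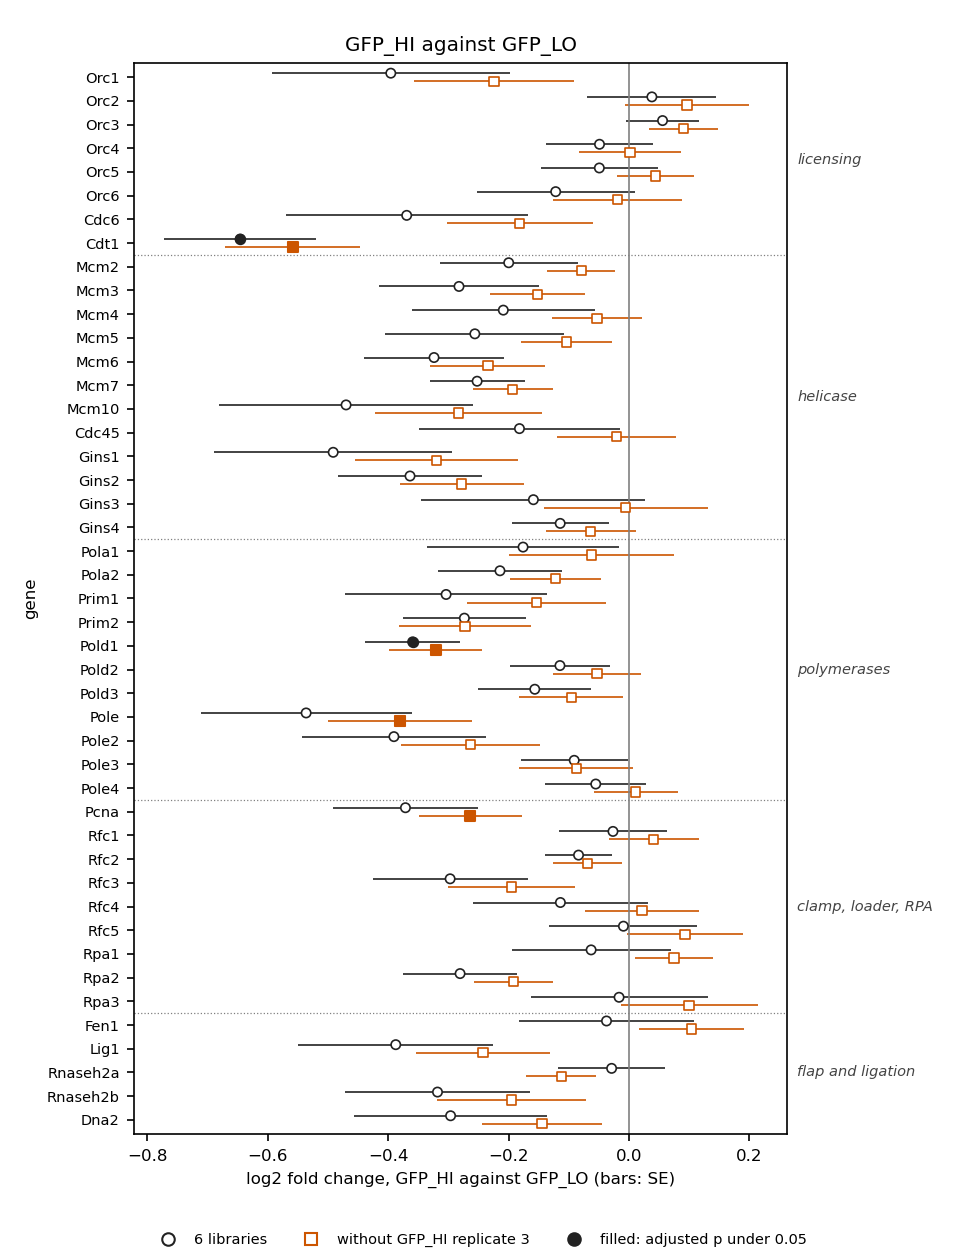
Log2 fold change of GFP_HI against GFP_LO with its SE for every member by role, with all 6 libraries and without GFP_HI replicate 3. Values lie left of 0 for 43 members with all libraries and for 34 without that library, and Cdt1 is the farthest left in both.

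The Lmo2 transgene was compared with wildtype in whole DN3 cells, to see how replication genes stood before any division-based sort. In Lmo2Tg 42 of 45 members had a lower mean than in wildtype, with a median log2 fold change of -0.21 against -0.013 over all 11840 genes tested. The members that passed the test were all lower: Dna2, Pole2, Pold2, Rpa2, Pold1, Pold3, Mcm2 and Prim2. That is 8 of 45 (17.8%), against 16.9% of all genes called lower and 36.6% called in either direction, a share near the background. At an unadjusted p under 0.05 there were 18 members, against 46.7% of all genes. The groups did not overlap for 31 members, all lower in Lmo2Tg, where 31.0% of all genes were lower without overlap. No member differed by more than 2-fold. Lmo2Tg library A was below library B for 41 members, with median deviations of -0.173 and 0.0109, and wildtype replicate 3 was the highest wildtype library for 38. Without library A the median was -0.13 and without library B -0.31, each with a single Lmo2Tg library left.

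Polymerase genes made up 5 of the 8. That is 45.5% of the 11 polymerase genes, against 16.9% of all genes called lower and 36.6% called in either direction. Pole2, the accessory subunit of polymerase epsilon, measured 35.9, 37.5 and 42.1 CPM in wildtype and 24.4 and 26.8 in Lmo2Tg (-0.59 ± 0.12 SE, edgeR adjusted p = 0.00336). All 3 measured polymerase delta subunits fell. Pold2 measured 93.8, 102 and 131 CPM in wildtype and 69.4 and 80.6 in Lmo2Tg (-0.54 ± 0.14 SE, edgeR adjusted p = 0.0103). Pold1 measured 229, 236 and 274 CPM against 187 and 206 (-0.33 ± 0.09 SE, edgeR adjusted p = 0.0188), and Pold3 119, 120 and 120 against 96.4 and 103 (-0.26 ± 0.08 SE, edgeR adjusted p = 0.020). The primase gene Prim2 measured 94.1, 87.3 and 89.7 CPM against 66.5 and 78.8 (-0.31 ± 0.11 SE, edgeR adjusted p = 0.0458). The wildtype libraries were above both Lmo2Tg libraries for each of these genes. Pold1 was the 1 member called lower both here and in GFP_HI against GFP_LO. The other 6 polymerase genes lay between -0.21 and -0.11, all with a lower mean.

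Dna2 had the smallest p of all members. It measured 94.2, 94.1 and 102 CPM in wildtype and 62.4 and 69.4 in Lmo2Tg, and fell by 31.9% (-0.55 ± 0.09 SE, edgeR adjusted p = 0.000703). The other genes of its group were lower in Lmo2Tg by -0.30 (Rnaseh2a and Rnaseh2b), -0.24 (Fen1) and -0.14 (Lig1) and did not pass. Rpa2 measured 118, 116 and 142 CPM in wildtype and 95.0 and 101 in Lmo2Tg (-0.36 ± 0.09 SE, edgeR adjusted p = 0.0136), the only called gene of the clamp group. Pcna went apart from the rest: 526, 531 and 625 CPM in wildtype and 540 and 631 in Lmo2Tg (0.06 ± 0.11 SE, edgeR adjusted p = 0.703). Its groups overlapped, and only Orc5 had a higher log2 fold change (23.7, 26.7 and 27.9 CPM against 26.5 and 28.7; 0.08 ± 0.11 SE).

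All 12 helicase genes had a lower mean in Lmo2Tg and 11 had groups that did not overlap, where 31.0% of all genes were lower without overlap. Mcm2 measured 500, 507 and 555 CPM in wildtype and 385 and 440 in Lmo2Tg (-0.33 ± 0.10 SE, edgeR adjusted p = 0.0204). Mcm6 measured 909, 893 and 936 CPM against 718 and 824 (-0.24 ± 0.09 SE, edgeR adjusted p = 0.066), and Mcm5 471, 484 and 542 against 394 and 458 (-0.23 ± 0.12 SE, edgeR adjusted p = 0.159). Mcm7 measured 537, 541 and 604 CPM against 464 and 520, and Mcm4 420, 423 and 444 against 364 and 393 (-0.19 and -0.18). Mcm3 measured 476, 479 and 491 CPM against 420 and 465 (-0.12 ± 0.09 SE), the value nearest to 0 among helicase genes. Thus each ring gene was lower in both Lmo2Tg libraries than in any wildtype library, by amounts close to the standard error for Mcm3. Of the licensing genes 7 of 8 had a lower mean and none was called by edgeR. An unadjusted p under 0.05 was found for 1 (Orc2), against 46.7% of all genes. Cdt1 measured 132, 129 and 143 CPM in wildtype and 114 and 123 in Lmo2Tg (-0.18 ± 0.11 SE, edgeR adjusted p = 0.21), and Cdc6 122, 113 and 136 against 113 and 96.1 (-0.24 ± 0.12 SE, edgeR adjusted p = 0.148).

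**Figure D4:**
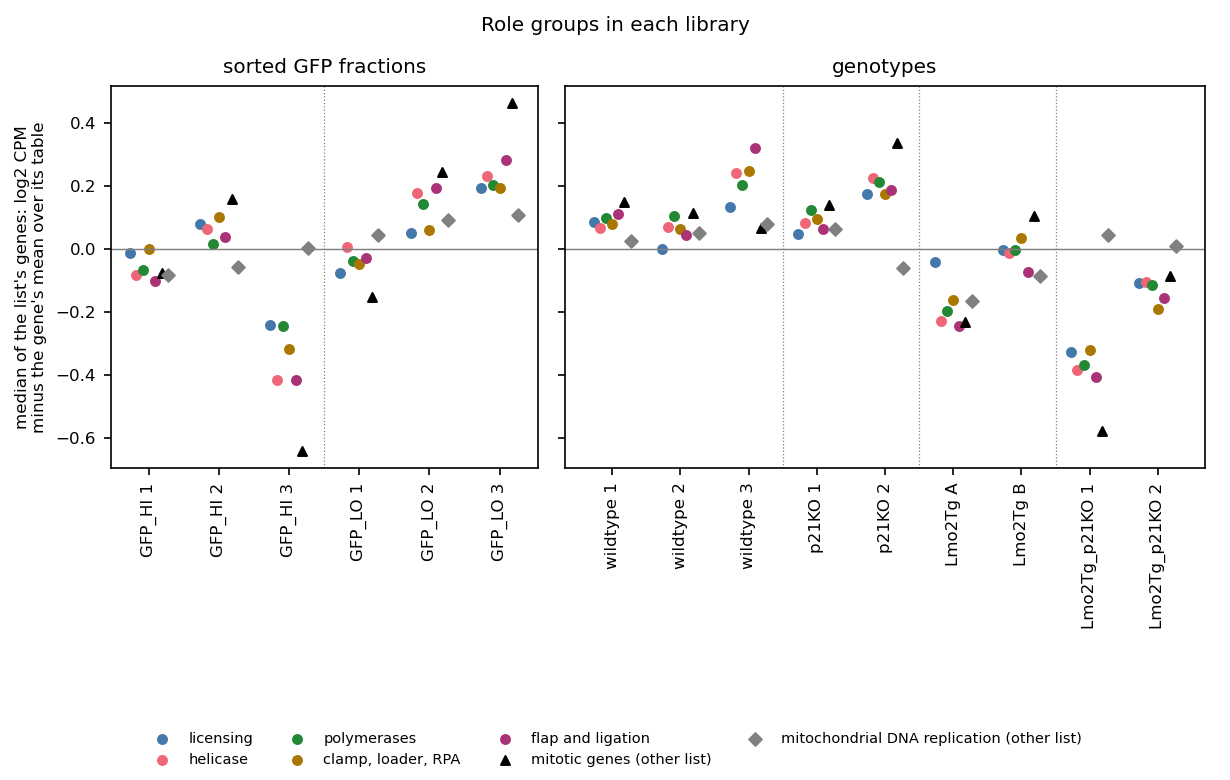
Median over the genes of each role group of log2 CPM minus the gene's mean over its table, by library, with the 16 mitotic genes and the 8 mitochondrial replication genes tested for comparison. The 5 role groups are lowest in GFP_HI replicate 3 and Lmo2Tg_p21KO replicate 1, while the mitochondrial list stays between -0.164 and 0.11.

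Loss of p21 in Lmo2Tg cells asks whether replication genes depend on this inhibitor of cyclin-dependent kinases, which also binds PCNA. In Lmo2Tg_p21KO 38 of 45 members had a lower mean than in Lmo2Tg, with a median log2 fold change of -0.15 against 0.018 over all genes. No member passed edgeR's test, where 3.59% of all genes were called lower and 6.94% in either direction. At an unadjusted p under 0.05 there were 7 members (15.6%, against 25.5% of all genes). Of the members limma-voom called 0 (711 of all 11840 genes) and DESeq2 called 1, Pcna (1050 of all genes). Groups did not overlap for 13 members that were lower (25.7% of all genes were) and for 2 that were higher, Orc4 and Gins3 (29% of all genes were). Lmo2Tg_p21KO replicate 1 was below replicate 2 for all 45 members, with median deviations of -0.374 and -0.123, and replicate 2 was above Lmo2Tg library A for 30. The median of -0.15 became -0.05 without Lmo2Tg_p21KO replicate 1, -0.29 without its replicate 2, -0.25 without Lmo2Tg library A and -0.07 without library B. The mitotic genes differed the same way between these libraries, at -0.578 and -0.0842.

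Pcna came nearest to the threshold. It measured 385 and 463 CPM in Lmo2Tg_p21KO, 540 and 631 in Lmo2Tg, 516 and 582 in p21KO and 526, 531 and 625 in wildtype. Both double-mutant libraries were below every other library of the table (-0.47 ± 0.13 SE against Lmo2Tg, edgeR adjusted p = 0.0519), and the call passed at 0.0475 with relative log expression (RLE) size factors in place of TMM. Of the clamp loader, Rfc4 measured 31.9 and 43.7 CPM against 46.4 and 54.5 in Lmo2Tg (-0.41 ± 0.15 SE, edgeR adjusted p = 0.118), and Rfc3 42.7 and 50.2 against 53.1 and 59.8 (-0.28 ± 0.12 SE, edgeR adjusted p = 0.17). All 9 genes of the clamp group had a lower mean (median -0.20) and 5 did not overlap, where 25.7% of all genes were lower without overlap. Rpa2 was close to Lmo2Tg, at 94.3 and 98.5 CPM against 95.0 and 101 (-0.02 ± 0.10 SE).

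Among the polymerase genes Pole3 measured 57.8 and 65.8 CPM in Lmo2Tg_p21KO and 70.2 and 84.0 in Lmo2Tg (-0.32 ± 0.11 SE, edgeR adjusted p = 0.111). Prim2 measured 51.3 and 63.8 CPM against 66.5 and 78.8 (-0.33 ± 0.12 SE, edgeR adjusted p = 0.119). Both had groups that did not overlap. Pola1, the catalytic subunit of polymerase alpha, measured 103 and 142 CPM against 141 and 157 (-0.28 ± 0.15 SE, edgeR adjusted p = 0.257), with replicate 2 above library A. Pole2, which fell with the transgene, had the highest log2 fold change here, 25.8 and 32.7 CPM against 24.4 and 26.8 (0.19 ± 0.13 SE, edgeR adjusted p = 0.388).

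Lig1 measured 207 and 261 CPM in Lmo2Tg_p21KO against 264 and 315 in Lmo2Tg, just apart (-0.31 ± 0.12 SE, edgeR adjusted p = 0.158). Rnaseh2b measured 54.8 and 65.2 CPM against 61.3 and 73.2 (-0.16 ± 0.13 SE), and Rnaseh2a 58.7 and 67.6 against 54.8 and 62.3 (0.11 ± 0.12 SE). Dna2, at 59.7 and 68.3 CPM against 62.4 and 69.4, showed -0.04 ± 0.10 SE. In the licensing group Orc6 measured 50.3 and 58.8 CPM against 65.4 and 69.3 (-0.30 ± 0.12 SE, edgeR adjusted p = 0.16), and Cdt1 89.0 and 113 against 114 and 123 (-0.23 ± 0.12 SE, edgeR adjusted p = 0.252). Orc4 stood higher, 73.9 and 80.2 CPM against 68.5 and 68.3 (0.17 ± 0.08 SE, edgeR adjusted p = 0.215), and Cdc6 overlapped, 84.2 and 107 against 113 and 96.1 (-0.13 ± 0.14 SE).

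The helicase genes were lower in 11 of 12 cases but overlapped in 10. Mcm5 measured 316 and 402 CPM in Lmo2Tg_p21KO and 394 and 458 in Lmo2Tg (-0.25 ± 0.13 SE, edgeR adjusted p = 0.263), and Mcm2 331 and 396 against 385 and 440 (-0.18 ± 0.11 SE, edgeR adjusted p = 0.306). Mcm3 measured 367 and 440 CPM against 420 and 465, Mcm4 311 and 380 against 364 and 393, Mcm6 644 and 764 against 718 and 824, and Mcm7 405 and 488 against 464 and 520. For every ring gene replicate 1 was below both Lmo2Tg libraries and replicate 2 between them (log2 fold changes of -0.14 to -0.13 for these 4). Gins3 went the other way at 25.7 and 28.8 CPM against 22.5 and 25.3 (0.19 ± 0.11 SE, edgeR adjusted p = 0.309). Means fell from wildtype to Lmo2Tg to Lmo2Tg_p21KO for 36 of 45 members. The comparisons along that order share the Lmo2Tg libraries, and 34 members had a lower mean in both of them and in GFP_HI against GFP_LO.

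**Figure D5:**
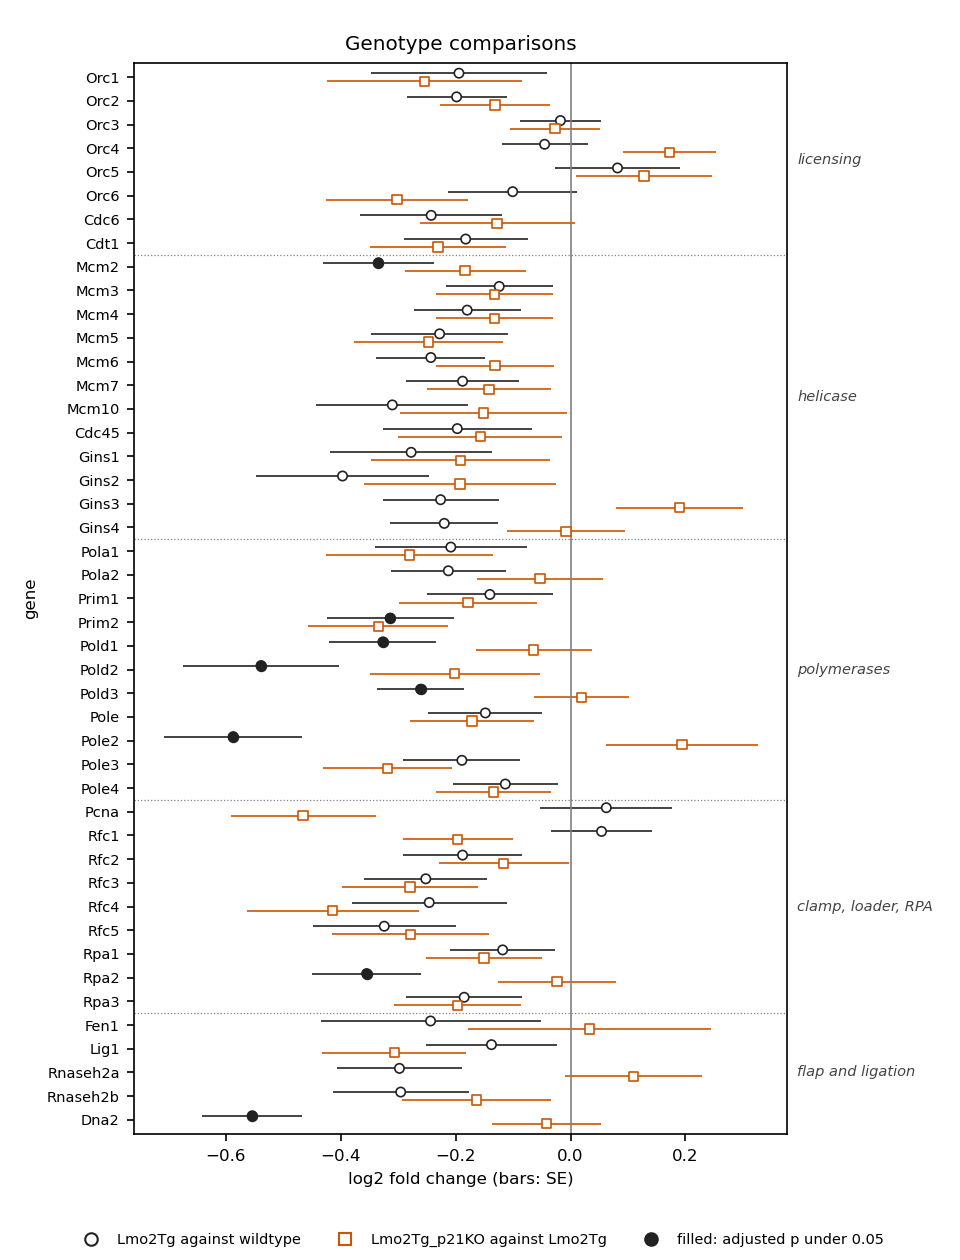
Log2 fold change with its SE for every member by role, in Lmo2Tg against wildtype and in Lmo2Tg_p21KO against Lmo2Tg, which share the Lmo2Tg libraries. Dna2 and Pold2 are far left in the first and nearer 0 in the second, Pole2 is far left in the first (-0.59) and right of 0 in the second (0.19), and Pcna is near 0 in the first (0.06) and far left in the second (-0.47).

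Without the transgene, differences between p21KO and wildtype were small. In p21KO against wildtype 20 members had a lower and 25 a higher mean, with a median log2 fold change of 0.016. No member was called by edgeR (adjusted p of 0.984 or more), by DESeq2 or by limma-voom, 0 had an unadjusted p under 0.05, and 0.110% of all genes were called. Groups did not overlap for 4 members, each higher in p21KO (Mcm10, Pola1, Rfc1 and Pold3), or 8.89% of members where 9.91% of all genes were. The extremes were Pola1, at 185 and 214 CPM against 178, 184 and 156 (0.21 ± 0.13 SE), and Pole4, at 68.2 and 62.7 against 67.8, 69.8 and 78.9 (-0.14 ± 0.09 SE). Cdt1 measured 128 and 147 CPM in p21KO and Cdc6 124 and 141, with log2 fold changes of 0.03 and 0.10. Mcm2 measured 515 and 511 CPM, Mcm3 484 and 536, Mcm4 439 and 473, Mcm5 477 and 547, Mcm6 908 and 977 and Mcm7 542 and 572. All of these ring genes overlapped wildtype, with log2 fold changes of -0.02 to 0.09. Standard errors had a median of 0.106.

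Whether p21 loss acted differently with the transgene was tested by the interaction of Lmo2Tg and p21 loss. Of 45 members 36 had a negative interaction, with a median of -0.17 against 0.013 over all genes, and edgeR, DESeq2 and limma-voom each called 0, with 1.38% of all genes called by edgeR. The median became -0.07 without Lmo2Tg_p21KO replicate 1, -0.30 without its replicate 2, -0.27 without Lmo2Tg library A and -0.06 without library B. An unadjusted p under 0.05 was found for 4 members (Pole3, Pcna, Pola1 and Rfc1), or 8.89%, against 18.1% of all genes. Pole3 had the smallest (-0.40 ± 0.15 SE, edgeR adjusted p = 0.194), Pola1 the lowest value (-0.49 ± 0.20 SE, edgeR adjusted p = 0.22), and Pcna was at -0.43 ± 0.17 SE (edgeR adjusted p = 0.21). Rnaseh2a had the highest (0.21 ± 0.16 SE, edgeR adjusted p = 0.511). The ring genes lay between -0.13 (Mcm7) and -0.29 (Mcm5), with Mcm2 at -0.16, Mcm3 at -0.21, Mcm4 at -0.22 and Mcm6 at -0.18, and Cdc6 and Cdt1 were at -0.23 and -0.26. Standard errors of the interaction had a median of 0.159.

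Genes that work beside the members were listed by function. In GFP_HI against GFP_LO 21 origin firing and fork accessory genes were tested (median log2 fold change -0.31), with 5 genes called lower and 1 higher (28.6% called, against 14.9% of all genes). The 5 were Recql4, a helicase that helps to assemble the active helicase (36.0, 44.4 and 34.6 CPM in GFP_HI against 58.1, 74.6 and 75.3 in GFP_LO; -0.86 ± 0.14 SE, edgeR adjusted p = 0.0165), Dscc1 (-1.12) and Chtf18 (-0.62) of an alternative clamp loader, Mtbp (-0.69), a partner of the firing factor Ticrr, and Timeless (-0.58) of the fork protection complex. Chtf8, the third subunit of that clamp loader, was the 1 that rose (0.25). Of 10 dNTP supply genes 1 was called, thymidine kinase Tk1, which fell by -0.58 (edgeR adjusted p = 0.044). Among 12 repair and translesion polymerases Primpol fell (-0.27) and Poli rose (0.66). The smallest p in the lists without a call belonged to Chaf1a (10 chromatin assembly genes, median -0.13), E2f1 (13 E2F and pocket protein genes, median -0.20), Mgme1 (8 mitochondrial replication genes, median -0.12), Cdk2 (10 S phase cyclins and kinases, median -0.28) and Bub1b (16 mitotic genes, all with a lower mean, median -0.33). Without GFP_HI replicate 3, where 41.3% of all genes were called, the calls were 9 of 21 origin firing genes, 2 of 10 dNTP supply genes, 5 of 12 repair polymerases, 3 of 8 mitochondrial genes, 3 of 13 E2F and pocket protein genes, 1 of 10 chromatin assembly genes, 1 of 10 S phase genes and 0 of 16 mitotic genes (1 at an unadjusted p under 0.05). The median of the mitotic genes was then -0.14 and that of the origin firing genes -0.17.

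In Lmo2Tg against wildtype, where 16.9% of all genes were called lower and 36.6% in either direction, 6 of 10 chromatin assembly genes were called lower, led by the histone chaperone subunit Rbbp7 (387, 399 and 409 CPM in wildtype, 276 and 316 in Lmo2Tg; -0.43 ± 0.10 SE, edgeR adjusted p = 0.0054). All 10 dNTP supply genes had a lower mean and 4 were called (Dtymk, Dck, Dctpp1 and Tk1). Origin firing genes split into 5 called lower, with Mcmbp, a binding partner of free MCM subunits, first (169, 171 and 182 CPM against 128 and 130; -0.43 ± 0.07 SE, edgeR adjusted p = 0.000967), and 1 higher, Dbf4 (0.40), the activator of the Cdc7 kinase, while Cdc7 itself fell (-0.28). Of the E2F and pocket proteins E2f7 (-1.03), E2f3, E2f4 and E2f6 fell, and the pocket proteins Rbl2 (0.52) and Rb1 (0.47) and the E2F partner Tfdp2 (0.31) rose. Skp2 (-0.90), which targets p27 and free Cdt1 for degradation, and Ccne2 (-0.60) fell among 10 S phase cyclins and kinases, Ccnb1 (-0.52) among 16 mitotic genes, and Polh (-0.61) and Polk (-0.34) among the repair polymerases. In Lmo2Tg_p21KO against Lmo2Tg, where 6.94% of all genes were called in either direction, 1 gene of all these lists was called. It was the translesion polymerase Polk, 1 of 12 genes in its list (8.33%). Polk rose (18.1 and 18.9 CPM in Lmo2Tg, 29.1 and 26.1 in Lmo2Tg_p21KO, 0.57 ± 0.11 SE, edgeR adjusted p = 0.0167).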

How the data were processed

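Poly-A RNA from DN3 thymocytes was sequenced. The authors deposited raw counts per gene in 2 tables, and the submitters' processing notes name STAR 2.4.2a, featureCounts, limma and mm10. The names of the tables hold the words Reverse (GFP fractions) and No (genotypes). Whether these words are the strand setting of the counting is not stated in the sources used here. Members and lists were chosen with earlier results of these data known. Columns were matched to the labels by name, 1 column, named like a further Lmo2Tg_p21KO library, matched no sample and was not used, and p21KO replicate 3 had no matching column and was not analysed here. Whether these are the same library under another name is not known. Each table was fitted whole with edgeR 4.0.16 in R 4.3.3 (TMM; filterByExpr with a minimum count of 10 and total of 15; quasi-likelihood test), and genes with a Benjamini-Hochberg adjusted p under 0.05 over all genes were called. CPM used TMM-scaled library sizes. The code was tested on simulated data. Genes were given full values by rule: Pcna, Cdc6, Cdt1 and Mcm2 to Mcm7 always, the 3 smallest p per role in GFP_HI against GFP_LO and Lmo2Tg_p21KO against Lmo2Tg, called members, and the extremes of each comparison; any other gene was named after its values were seen. In the other lists the gene with the smallest p and the called genes were named. Positions came from GENCODE M21 (mm10), which matched 21721 genes. Alternatives were DESeq2 1.42.0, limma-voom 3.58.1, RLE size factors, other filters and thresholds, subsets of libraries and a replicate block. Levels of 1 marker list are not reported here.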

Additional observations from a re-analysis of the deposited data

How the results depend on the processing

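Over 1214 values of named members under the alternatives, 16 changed sign, and 0 of these were past the threshold in either fit. The other changes were 15 values that passed the threshold and 21 that no longer did. In GFP_HI against GFP_LO the 2 members called became 8 with DESeq2 (2913 genes called, against 1721). They became 0 at an adjusted p under 0.01 (403 genes) and 0 with a fold above 2 (731 genes). Leaving out each library gave 0 to 4 members and 273 to 4848 genes. The replicate block called 0 members and 496 genes. The paper describes both fractions as coming from independent cohorts, but the labels do not say which libraries share a cohort. Same-numbered libraries had deviations that correlated at 0.0703, -0.0793 and 0.0989. These correlations cannot show whether the libraries are pairs, and the main fit took them as unpaired. In Lmo2Tg_p21KO against Lmo2Tg the 0 members called became 1, Pcna, with RLE size factors, DESeq2, no filter on low counts, and at least 1 CPM in every library. Over all genes 822 were called in the main fit and 806, 1050, 1185 and 798 in these, in that order. Without wildtype replicate 3 the calls there were 1 member and 1128 genes, and medians ran from -0.2945 to -0.04559 with a library left out. In Lmo2Tg against wildtype the 8 members called became 14 with no filter, 2 at an adjusted p under 0.01, 0 with a fold above 2, and 2 to 12 with a library left out (medians of -0.3143 to -0.1266). The interaction median ran from -0.302 to -0.06066 with a library left out. The cause of these changes was not tested.

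Signs changed in p21KO against wildtype, where values ran over the libraries left out from -0.1202 to 0.05105 for Pcna (0.04759 with the replicate block), -0.07146 to 0.1154 for Cdt1, -0.04971 to 0.02361 for Mcm2 (0.02458 with the replicate block), -0.06539 to 0.1273 for Mcm5, -0.00799 to 0.0928 for Mcm6 and -0.05094 to 0.04327 for Mcm7 (0.04241 with the replicate block). In Lmo2Tg_p21KO against Lmo2Tg they ran from -0.008639 to 0.2058 for Rnaseh2a and -0.3215 to 0.01911 for Cdc6, and in Lmo2Tg against wildtype from -0.05686 to 0.1726 for Pcna. Correlations of same-numbered p21KO and wildtype libraries were -0.237 and 0.303. No paired analysis was possible because the numbers in the names of the Lmo2Tg columns also match descriptions of GFP_LO samples and were not taken as replicate numbers, for the comparisons with Lmo2Tg. Where leaving out a library left 1 in its group, that library was assumed to vary like the other groups.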

Other observations

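Mitochondrial DNA is copied by a separate set of enzymes, and 8 of the 9 genes listed for it were tested. Polg, the catalytic subunit of the mitochondrial polymerase, measured 45.2, 42.9 and 48.1 CPM in wildtype, 40.9 and 46.6 in p21KO, 76.6 and 85.3 in Lmo2Tg, and 84.0 and 92.7 in Lmo2Tg_p21KO. Both transgenic genotypes stood above both others without overlap, and Polg rose in Lmo2Tg against wildtype (log2 fold change 0.83 ± 0.09 SE, edgeR adjusted p = 6.6e-05). The mitochondrial topoisomerase Top1mt (-0.59), the ligase Lig3 (-0.33) and the RNA polymerase Polrmt (-0.26) fell in the same comparison. Between the GFP fractions Polg measured 74.6 to 99.96 CPM in GFP_HI and 101.3 to 106.9 in GFP_LO (-0.22 ± 0.11 SE, edgeR adjusted p = 0.234).

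Skp2, a substrate receptor of the SCF ubiquitin ligase, measured 60.9, 54.0 and 76.9 CPM in wildtype, 36.5 and 32.0 in Lmo2Tg, and 46.7 and 54.4 in Lmo2Tg_p21KO. It fell in Lmo2Tg against wildtype (-0.90 ± 0.16 SE, edgeR adjusted p = 0.00128), and in Lmo2Tg_p21KO against Lmo2Tg the value was 0.56 ± 0.17 SE (edgeR adjusted p = 0.0724) with no overlap. The pocket protein gene Rbl2 measured 71.7, 71.7 and 57.9 CPM in wildtype and 104 and 89.0 in Lmo2Tg, and the repressor E2f7 8.76, 9.29 and 8.89 against 4.51 and 4.31. These genes were named after their values were seen.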
